A study of Mus musculus with 12 samples.

Results

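The transcripts of 44 genes that build and run the primary cilium were followed in cultures of *Myt1l*-mutant mice. The genes were chosen by name, from the intraflagellar transport (IFT) trains and their motors, the BBSome, the transition zone and 2 further ciliary proteins. These genes and the other lists were chosen with earlier results of these data known, so their counts are descriptions and not tests. All 44 were found among the 55397 genes of the count table, and all 44 passed the low-count filter, which left 18264 genes. The smallest count of a member in an animal was 90, for *Bbs12*. RNA was sequenced from primary cultures of 3 *Myt1l* (+/−) and 3 (+/+) pups, prepared at P0 and harvested at day in vitro 11 (DIV11), with 2 libraries per animal. The (+/−) pups carried a CRISPR-made deletion of 7 bp in *Myt1l* (exon 6), a zinc finger repressor of non-neuronal genes, and the (+/+) pups were unmutated. All cultures received serum and, from the third day after plating, Ara-C, which kills dividing cells. The sources differ on the tissue (cortex in the labels, hippocampus for DIV11 cultures in the study) and on the strain (C57BL/6J in the labels, C57BL/6N in the study). The cultures are mixed, so that the cell type behind a transcript is not known.

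A primary cilium is a single antenna that grows from a centriole, and most neurons, astrocytes and radial glia carry one. Cargo moves along its microtubules on IFT trains: kinesin-2 pulls them to the tip with the IFT-B complex, and dynein-2 returns them with the IFT-A complex. The BBSome is an adaptor that carries membrane proteins out of the cilium, and the transition zone is the gate at its base. The same machinery builds the motile cilia that ependymal cells bear in large tufts. Mutations in these genes cause ciliopathies such as Bardet-Biedl, Joubert and Meckel syndromes.

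Libraries held 20181477 to 26594444 counts. The totals per animal were 40642699 to 43745258 in (+/−) and 43129302 to 52833161 in (+/+) animals. Levels are given as CPM, the counts divided by the library total and set to a common scale, after TMM scaling, with both libraries of an animal summed. Animal values are always in the order 505, 506, 508 for (+/−) and 510, 511, 513 for (+/+). Differences are log2 fold changes, (+/−) over (+/+), from edgeR's quasi-likelihood test with n = 3 animals per genotype, and an adjusted p under 0.1 was taken as passing. A range in brackets after a log2 fold change is its 95% confidence interval. *Myt1l* had 88.9, 146 and 165 CPM in (+/−) animals, against 119, 147 and 109 CPM in (+/+) animals, and the mutation is not followed by decay of the transcript, so this count does not check the genotype. *Xist*, the RNA of the inactive X chromosome, had 18805 counts in (+/+) 511 and 5 to 10 in every other animal, although the labels give all as male. Over the 12 markers of neurons, (+/−) 505 stood apart with a summed 2799 CPM, compared to 4831 and 5286 CPM in the other (+/−) animals and 5333 to 6334 CPM in (+/+) animals.

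Most of the 44 cilium genes were higher in (+/−) cultures, and the kinesin-2 motor was the exception. Because earlier results of these data were known at the choice, the shares beside all genes only describe the list. The log2 fold change was positive for 41 of 44 members, compared to 50.4% of all tested genes, and its median was 0.41, compared to 0.0031 over all tested genes. It ranged between −0.32 for *Kif3b* and 0.92 for *Bbs12*. None of the 44 passed edgeR at an adjusted p under 0.1, where 0% of all genes were called higher and 0% lower. The smallest adjusted p was 0.166, both over the members and over all genes. At an unadjusted p under 0.05, 29 members were higher, compared to 13.2% of all tested genes, and 1 was lower, compared to 9.11%. The 29 were 1.20-fold to 1.89-fold higher. In 25 members every (+/−) animal lay above every (+/+) animal, where 15.5% of all genes did so. In 1 member, *Kif3b*, every (+/−) animal lay below, as in 13.5% of all genes. The groups overlapped in the other 18. DESeq2, run on the same 6 animals, called 25 members higher at an adjusted p under 0.1, where it called 7.54% of all genes, and 0 lower, where it called 4.3%. All 25 were among the members under 0.05 in edgeR.

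**Figure D1:**
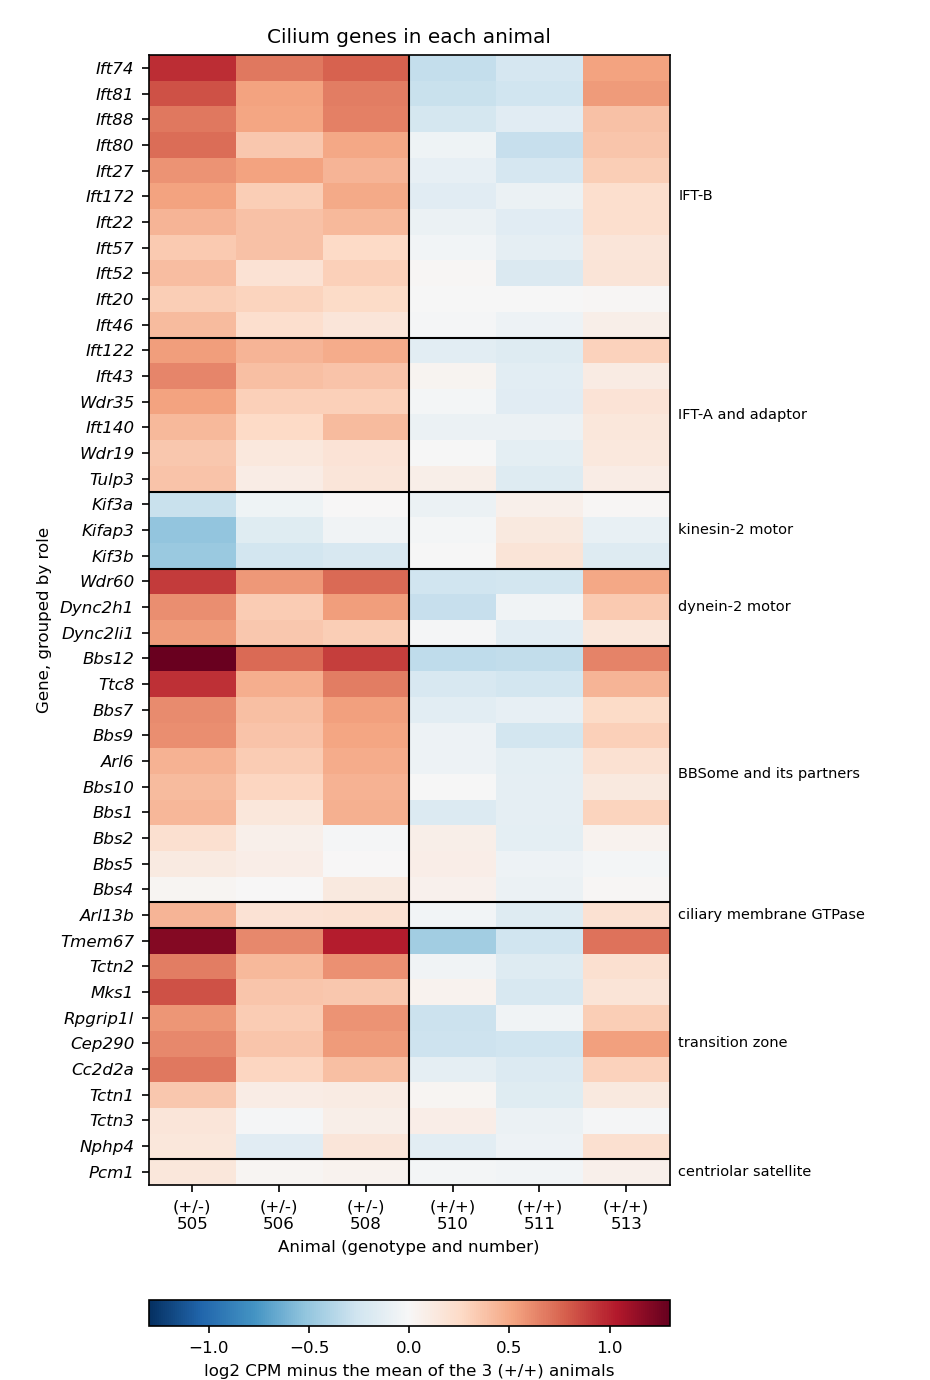
Heat map of the 44 cilium genes (rows, grouped by role) in the 6 animals (columns). Colour is log2 CPM minus the mean of the 3 (+/+) animals. All 3 (+/−) columns are red for most genes outside the kinesin-2 rows, and the column of (+/+) 513 is paler red.

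The animals of a genotype were not alike. The mean log2 level of the 44 genes, relative to the mean of (+/+) animals, was 0.46 in (+/−) 505, 0.27 in 506 and 0.36 in 508. In (+/+) animals it was −0.09 in 510, −0.13 in 511 and 0.22 in 513. Of the (+/−) animals, 505 was highest in 34 members, and of the (+/+) animals, 513 was highest in 37. Every (+/−) animal lay above both 510 and 511 in 36 members. For single members, the pair of libraries from 1 animal had a median absolute log2 difference of 0.05 and a largest one of 0.52, for *Bbs12*. These are differences of single genes and not of means over the 44.

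The counts therefore moved with single animals. Without (+/+) 513, edgeR called 30 members higher at an adjusted p under 0.1, compared to 12.3% of all genes, and 36 did not overlap, compared to 28.4%. Without (+/+) 511, whose *Xist* counts disagree with its label, 17 members were higher at an unadjusted p under 0.05, compared to 7.02% of all genes. Without (+/+) 510, 17 were higher, compared to 6.7%. Without (+/−) 505, 23 were higher, compared to 8.32%, and the member median was 0.34. Across these and the other animals left out, the member median stayed between 0.33 and 0.50, and the direction turned only for *Nphp4*.

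Promoters were read for the members because RFX transcription factors are known to bind paired half-sites, the X-box, in front of ciliary genes. Promoter windows, 250 bases before to 50 bases after the start (RefSeq, GRCm38.p6), were matched for 38 of 44 members. The paired site was searched as GTNNCC, then 1 to 3 of any base, then GGNNAC, a pattern that reads the same on both strands. It stood in the promoters of 11 of 38 members (28.9%), compared to 4% of all 27025 genes with a promoter. Of the matches that end at least 10 bases before the start, 7 are shown because they span members that were higher and members that were not. Each is given 5′ to 3′ on the strand of its gene, with the match in capitals and up to 10 bases on either side.
*Tctn2*, chr5:124598677-124598710: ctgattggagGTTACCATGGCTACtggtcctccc
*Bbs7*, chr3:36613487-36613520: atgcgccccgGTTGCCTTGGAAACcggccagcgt
*Ift22*, chr5:136908077-136908110: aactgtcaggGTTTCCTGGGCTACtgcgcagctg
*Mks1*, chr11:87853181-87853214: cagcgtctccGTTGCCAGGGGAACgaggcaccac
*Wdr19*, chr5:65199652-65199685: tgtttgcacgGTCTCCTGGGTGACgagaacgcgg
*Tctn3*, chr19:40612349-40612381: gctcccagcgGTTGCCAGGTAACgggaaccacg
*Nphp4*, chr4:152477901-152477934: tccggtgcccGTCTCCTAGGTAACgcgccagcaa

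The first 4 belong to members with an unadjusted p under 0.05, and the other 3 to members without. The site in *Tctn2* begins 62 bases before the start, and that in *Nphp4* 231 bases before it. The median log2 fold change was 0.32 over the 11 members with a paired site and 0.42 over the 27 without one. All 11 with a site and 24 of the 27 without one had a positive log2 fold change. The half-site GTTGCC alone, on either strand and counted also inside a paired site, was found in 17 of 38 members (44.7%), compared to 14.1% of all genes. The core AAAGTT, known as the binding motif of MYT1L, stood in 6 of 38 (15.8%), compared to 15.9% of all genes. GTAAACA, a forkhead motif, stood in 0 of 38, compared to 4.05%.

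All 11 IFT-B members, which code for parts of the trains that travel to the ciliary tip, were higher in (+/−) cultures at an unadjusted p under 0.05. Of all tested genes, 13.2% were. The median log2 fold change of the 11 was 0.44. In 9 every (+/−) animal lay above every (+/+) animal, compared to 15.5% of all tested genes. *Ift74* and *Ift81* code for partners that bind tubulin as cargo. *Ift74* (chr4:94614491-94693229, mm10) had 50.4, 41.8 and 44.2 CPM in (+/−) animals, against 20.99, 22.3 and 37.4 CPM in (+/+) animals. Its log2 fold change was 0.76 ± 0.22 SE (adjusted p = 0.167), the largest of the 11. *Ift81* had 55.6, 44.95 and 49.6 CPM in (+/−) animals, against 25.6, 26.1 and 45.9 CPM in (+/+) animals (0.62 ± 0.23 SE, adjusted p = 0.189). In both genes (+/+) 513 lay far above 510 and 511, and in *Ift81* it lay above (+/−) 506. Other IFT and motor genes outside the members are given below. Of those, 9 had a positive log2 fold change and 2, *Hspb11* and *Kif17*, a negative one.

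*Ift88*, loss of which abolishes cilia in the mouse, had 25.5, 22.6 and 24.9 CPM in (+/−) animals, against 13.5, 14.4 and 20.6 CPM in (+/+) animals (0.59 ± 0.17 SE, adjusted p = 0.167). *Ift172*, a long peripheral subunit, had 99.1, 86.3 and 97.1 CPM in (+/−) animals, against 62.5, 65.2 and 80.5 CPM in (+/+) animals (0.44 ± 0.12 SE, adjusted p = 0.166). *Ift80*, mutated in a skeletal ciliopathy, had 94.8, 73.1 and 81.3 CPM in (+/−) animals, against 55.1, 46.7 and 73.7 CPM in (+/+) animals (0.51 ± 0.18 SE, adjusted p = 0.184). *Ift88* and *Ift172* kept the genotypes apart, while in *Ift80* (+/+) 513 passed (+/−) 506. *Ift27* codes for a small GTPase that links the trains to BBSome exit, and had 37.7, 36 and 34.2 CPM in (+/−) animals, against 23.4, 21.6 and 31.4 CPM in (+/+) animals (0.50 ± 0.14 SE, adjusted p = 0.167). *Ift22*, another small GTPase of the complex, had 74.1, 70.8 and 73.1 CPM in (+/−) animals, against 51.8, 49.2 and 63.5 CPM in (+/+) animals (0.41 ± 0.11 SE, adjusted p = 0.166). The 3 (+/−) animals were close to each other in both GTPase genes.

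The remaining 4 IFT-B members differed less. *Ift20*, which also works at the Golgi, had 45.95, 45 and 43.8 CPM in (+/−) animals, against 36.8, 36.8 and 37.2 CPM in (+/+) animals. Its log2 fold change was 0.28 ± 0.07 SE (adjusted p = 0.166), with the smallest unadjusted p of the IFT-B members. *Ift57*, a peripheral subunit, had 42.03, 43.1 and 39.6 CPM in (+/−) animals, against 32.2, 30.5 and 36.99 CPM in (+/+) animals (0.32 ± 0.10 SE, adjusted p = 0.168). *Ift52*, a core subunit, had 36.04, 31.3 and 34 CPM in (+/−) animals, against 27.8, 24.1 and 30.7 CPM in (+/+) animals (0.30 ± 0.11 SE, adjusted p = 0.197). In *Ift20* the 3 (+/+) animals were nearly equal, so that a small difference stood clear of the spread. *Ift46*, which imports outer dynein arms in algae, had 59.4, 52.1 and 49.95 CPM in (+/−) animals, against 44.3, 42.6 and 47.2 CPM in (+/+) animals (0.27 ± 0.09 SE, adjusted p = 0.188).

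The IFT-A members and the adaptor *Tulp3* gave 6 of 6 positive log2 fold changes with a median of 0.37. Of these, 4 were higher at an unadjusted p under 0.05, compared to 13.2% of all tested genes. *Ift43* (chr12:86082541-86162459) had the smallest unadjusted p of this group, with 29.6, 25 and 24.7 CPM in (+/−) animals, against 19.5, 17.3 and 20.5 CPM in (+/+) animals (0.47 ± 0.11 SE, adjusted p = 0.166). *Ift122*, a core subunit, had 78.8, 73.5 and 75.5 CPM in (+/−) animals, against 49.2, 48.4 and 66.8 CPM in (+/+) animals (0.47 ± 0.13 SE, adjusted p = 0.167). *Ift140*, also a core subunit, had 63.5, 56.8 and 63.2 CPM in (+/−) animals, against 45.1, 45.1 and 52.4 CPM in (+/+) animals (0.36 ± 0.10 SE, adjusted p = 0.166). The genotypes were apart in all 3 genes, with (+/+) 513 nearest the (+/−) animals. *Wdr35* (IFT121 protein) had 127, 109.8 and 110.0 CPM in (+/−) animals, against 86.98, 80.2 and 100.2 CPM in (+/+) animals (0.38 ± 0.11 SE, adjusted p = 0.168). *Wdr19* (IFT144 protein) had 0.22 (−0.02 to 0.46) and overlapping groups. *Tulp3*, which hands G protein-coupled receptors to IFT-A, had 0.21 (−0.05 to 0.47).

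Both motors are given with their own values, and the difference between them was not tested. All 3 dynein-2 members, which serve the return path, were higher at an unadjusted p under 0.05, compared to 13.2% of all tested genes. The median log2 fold change of the 3 was 0.48. *Wdr60*, an intermediate chain, had 25.4, 19.9 and 22.5 CPM in (+/−) animals, against 11.3, 11.4 and 19.2 CPM in (+/+) animals (0.70 ± 0.22 SE, adjusted p = 0.17). *Dync2h1*, the heavy chain that moves on microtubules, had 68.3, 56.4 and 65.5 CPM in (+/−) animals, against 36.5, 43.3 and 56.9 CPM in (+/+) animals (0.48 ± 0.16 SE, adjusted p = 0.183). *Dync2li1*, the light intermediate chain, had 59.2, 51.2 and 50.2 CPM in (+/−) animals, against 39.8, 36.7 and 44.6 CPM in (+/+) animals (0.41 ± 0.11 SE, adjusted p = 0.166). Only in *Dync2h1* did a (+/+) animal, 513, reach the (+/−) range.

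All 3 kinesin-2 members had a negative log2 fold change, with a median of −0.23, and of −0.11 without (+/−) 505. Kinesin-2 also hauls cargo in axons, away from any cilium. *Kif3b* (chr2:153291413-153333390), a motor subunit, had 90.2, 107 and 109 CPM in (+/−) animals, against 126, 143 and 113 CPM in (+/+) animals (−0.32 ± 0.12 SE, adjusted p = 0.198), with every (+/−) animal below every (+/+) animal. *Kifap3*, the subunit that joins motor and cargo, had 179, 228 and 246 CPM in (+/−) animals, against 249, 278 and 238 CPM in (+/+) animals (−0.23 ± 0.14 SE, −0.55 to 0.09). *Kif3a*, the other motor subunit, had −0.11 (−0.35 to 0.13). In each of the 3 genes the lowest animal was (+/−) 505, the animal low in neuron markers. Without it, the log2 fold change of *Kif3b* was −0.23, that of *Kifap3* −0.11 and that of *Kif3a* −0.03. Without (+/−) 506, that of *Kif3b* was −0.36. None of the 3 was lower at an unadjusted p under 0.05 without (+/−) 505, (+/−) 506, (+/+) 510 or (+/+) 511. Per kilobase of exon, *Kifap3* and *Kif3a* were also the most abundant members, with 54.2 and 35.4 CPM per kb in (+/−) animals, against 63.6 and 38.3 CPM per kb in (+/+) animals. The median over the 44 members was 5.64 CPM per kb in (+/+) animals, and the lowest was *Bbs10* with 0.84.

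**Figure D2:**
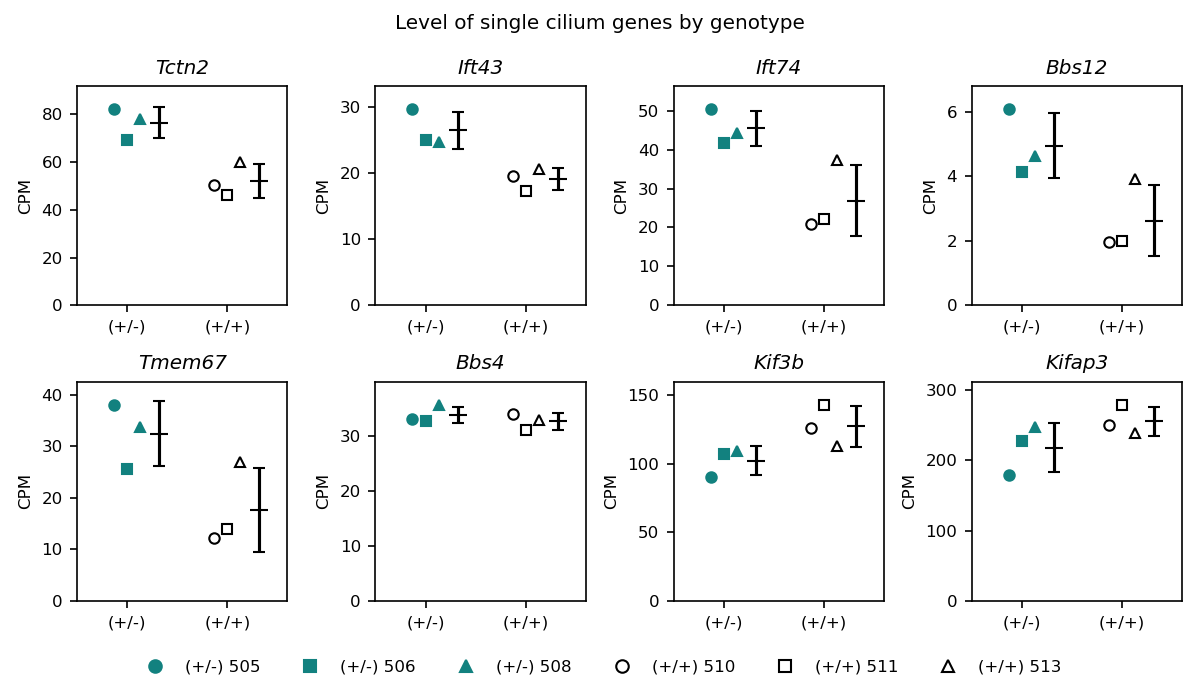
CPM of 8 cilium genes in each animal (points, filled for (+/−) and open for (+/+)), with mean and SD (bars, n = 3). All (+/−) points lie above the (+/+) points in *Tctn2*, *Ift43*, *Ift74* and *Bbs12* and below them in *Kif3b*, and the groups overlap in *Tmem67*, *Bbs4* and *Kifap3*.

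The log2 fold changes of the BBSome group ranged between 0.05 for *Bbs4* and 0.92 for *Bbs12*. All 10 members of the group, subunits and partners, had a positive log2 fold change. At an unadjusted p under 0.05, 6 of them were higher, compared to 13.2% of all tested genes. *Bbs7*, a scaffold subunit whose promoter is shown above, had 23.3, 20.1 and 22.1 CPM in (+/−) animals, against 13.9, 14.1 and 18.1 CPM in (+/+) animals (0.51 ± 0.13 SE, adjusted p = 0.166), the smallest unadjusted p of this group. *Bbs9*, which holds the complex together, had 26.02, 22.03 and 24.4 CPM in (+/−) animals, against 16.3, 14.5 and 21.2 CPM in (+/+) animals (0.48 ± 0.15 SE, adjusted p = 0.17). *Ttc8* (BBS8 protein) had 30.7, 22.1 and 25.3 CPM in (+/−) animals, against 13.9, 13.6 and 21.6 CPM in (+/+) animals (0.67 ± 0.21 SE, adjusted p = 0.169). The genotypes did not overlap in any of the 3. Of the other subunits among the members, *Bbs1* had 0.34 (−0.00 to 0.68) and *Bbs2* had 0.09 (−0.15 to 0.33). *Bbs4* had 0.05 (−0.14 to 0.24) and *Bbs5* had 0.07 (−0.17 to 0.30). The intervals of *Bbs2*, *Bbs4* and *Bbs5* span 0 and do not show that these genes were equal in both genotypes. The difference between subunits was not tested. Of 3 BBSome-related genes outside the members, given below, 2 had a positive log2 fold change and 1, *Bbip1*, a negative one. *Bbs4* shares 194 exon bases with *Adpgk* on the opposite strand, a gene of 6645 counts over all libraries, against 8888 for *Bbs4*.

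The 3 BBSome partners among the members were higher at an unadjusted p under 0.05, compared to 13.2% of all tested genes. None of the 3 passed the adjusted threshold. *Arl6* codes for the GTPase that recruits the BBSome to membranes, and had 25.5, 23.5 and 26.02 CPM in (+/−) animals, against 17.8, 17.1 and 21.4 CPM in (+/+) animals (0.42 ± 0.11 SE, adjusted p = 0.166). *Bbs12* (chr3:37312554-37321453), a chaperonin-like factor needed to assemble the complex, had 6.08, 4.15 and 4.64 CPM in (+/−) animals, against 1.98, 2.00 and 3.91 CPM in (+/+) animals (0.92 ± 0.30 SE, adjusted p = 0.175), the largest log2 fold change of all members. *Bbs10*, a related chaperonin-like factor, had 3.39, 3.09 and 3.49 CPM in (+/−) animals, against 2.54, 2.36 and 2.78 CPM in (+/+) animals (0.38 ± 0.16 SE, adjusted p = 0.215). Both chaperonin genes were the least abundant members per kilobase of exon, and *Bbs12* had only 90 to 276 counts per animal. An exon of *Bbs12* shares 32 bases with *Cetn4* on the opposite strand, a gene with 8975 counts over all libraries, against 997 for *Bbs12*. It also shares 32 bases with *Gm43439*, a gene of 1448 counts on its own strand, which strand could not separate. The sources used here do not state whether counting used strand, so reads of the overlapping genes may mix.

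The transition zone members gave 9 of 9 positive log2 fold changes, with a median of 0.47. At an unadjusted p under 0.05, 5 of them were higher, compared to 13.2% of all tested genes. *Tctn2* (chr5:124598749-124627738), a tectonic of the gate membrane, had 82.04, 69.3 and 78.03 CPM in (+/−) animals, against 50.3, 46.1 and 60.1 CPM in (+/+) animals (0.55 ± 0.12 SE, adjusted p = 0.166), the smallest unadjusted p of all 44 members. *Tmem67* (chr4:12039355-12090020), the membrane protein meckelin, had 37.9, 25.5 and 33.7 CPM in (+/−) animals, against 12.1, 13.9 and 27 CPM in (+/+) animals (0.88 ± 0.30 SE, adjusted p = 0.182), the second largest difference of all members. *Mks1*, a soluble partner of the membrane proteins, had 17.8, 12.9 and 12.8 CPM in (+/−) animals, against 10.4, 8.67 and 11.2 CPM in (+/+) animals (0.52 ± 0.17 SE, adjusted p = 0.174). *Tctn2* and *Mks1* kept the genotypes apart, whereas *Tmem67* was higher in (+/+) 513 than in (+/−) 506. *Tmem67* shares 289 exon bases with *Rbm12b2* on the opposite strand, a gene of 1491 counts over all libraries, against 6563 for *Tmem67*. *Rpgrip1l*, which places other gate proteins, had 32.4, 27.3 and 32.7 CPM in (+/−) animals, against 17.9, 21.1 and 27.2 CPM in (+/+) animals (0.48 ± 0.16 SE, adjusted p = 0.179). *Cc2d2a*, mutated in Joubert syndrome, had 57.1, 43 and 46.5 CPM in (+/−) animals, against 32.5, 31.2 and 43.5 CPM in (+/+) animals (0.45 ± 0.16 SE, adjusted p = 0.187). In *Cc2d2a* (+/+) 513 again passed (+/−) 506.

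The other 4 gate members had wide or small differences. *Cep290*, which links microtubules to membrane, had 0.47 (−0.04 to 0.98), and shares 881 exon bases with an antisense gene of 3844 counts. *Tctn1* had 0.18 (−0.08 to 0.44) and *Tctn3* 0.08 (−0.13 to 0.28). *Nphp4* had 0.05 (−0.26 to 0.37), and turned to −0.003 without (+/−) 508 and to −0.02 without (+/+) 510. The 3 tectonic genes, close relatives, therefore spread between 0.08 and 0.55. *Arl13b*, a GTPase of the ciliary membrane used to stain cilia, had 32.2, 26.8 and 27.1 CPM in (+/−) animals, against 23.1, 20.97 and 27.2 CPM in (+/+) animals (0.27 ± 0.13 SE, −0.02 to 0.57). *Pcm1*, the scaffold of the centriolar satellites, had 101, 92.7 and 93.7 CPM in (+/−) animals, against 89.5, 88.6 and 95.2 CPM in (+/+) animals (0.07 ± 0.08 SE, −0.12 to 0.26). In both genes (+/+) 513 lay within the (+/−) range.

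**Figure D3:**
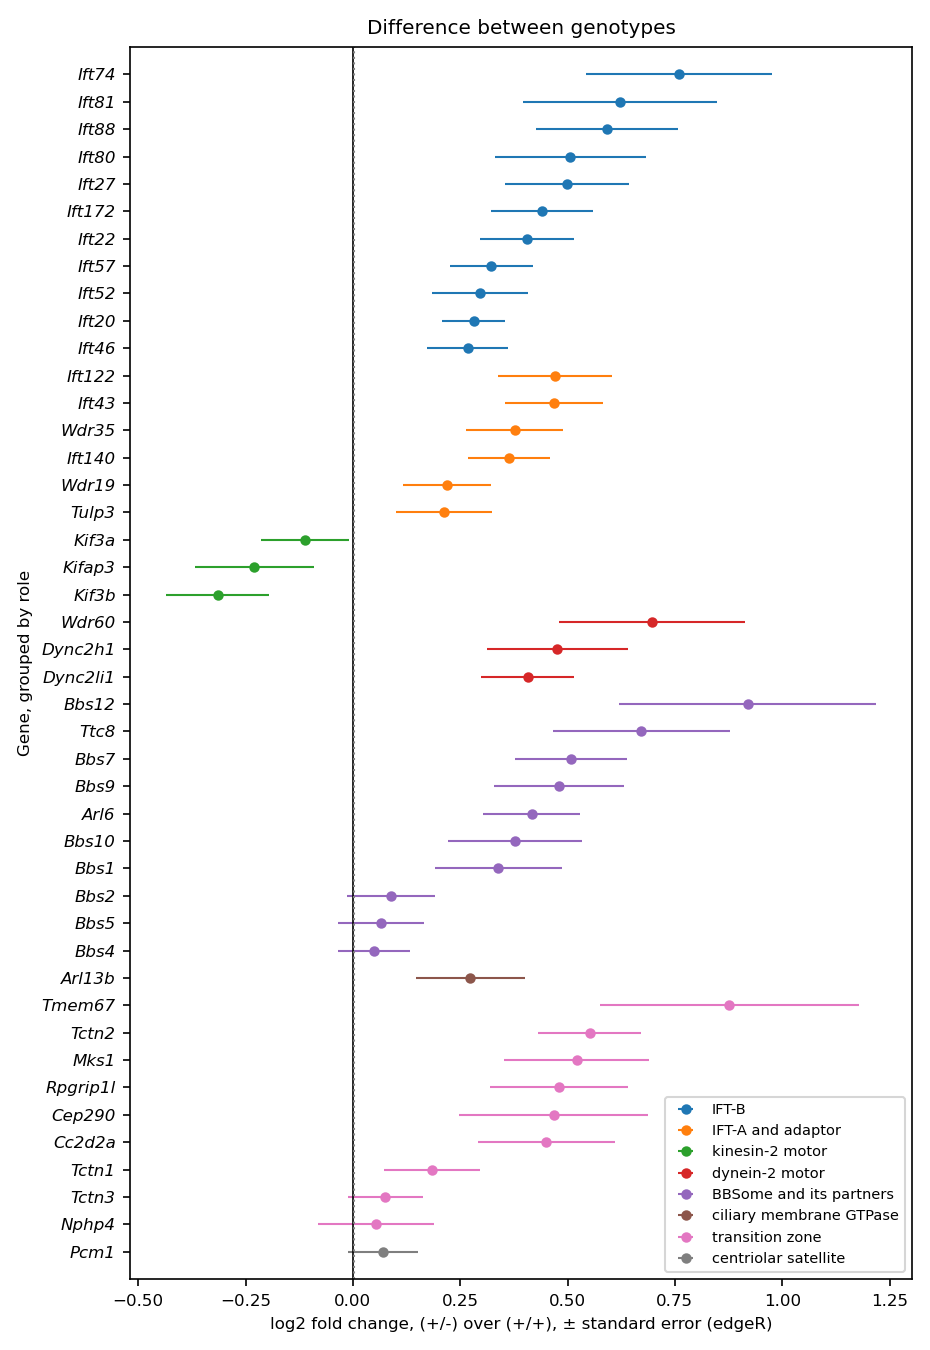
Log2 fold change, (+/−) over (+/+), of each of the 44 genes (points, coloured by role group) with its standard error (bars, edgeR, n = 3 animals per genotype). Points lie right of 0 for 41 genes and left of it for the 3 kinesin-2 genes.

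A further 50 cilium genes outside the 44, also chosen with earlier results of these data known, were read the same way. Of these, 37 had a positive log2 fold change, with a median of 0.21. At an unadjusted p under 0.05, 20 were higher, compared to 13.2% of all tested genes, and 1, *Kif17*, was lower, compared to 9.11%. Among the 20 were 7 of 11 other IFT and motor genes and 7 of 14 other transition zone genes. The 20 also held 3 of 10 basal body and centriole genes and 3 of 12 ciliary signalling genes. Of the other IFT and motor genes, *Hspb11* had −0.23 (−0.59 to 0.13), *Tctex1d2* 0.12 (−0.15 to 0.40) and *Ttc30a2* 0.66 (−0.75 to 2.06). Other IFT and motor genes gave a median of 0.32 and other transition zone genes 0.34, while basal body and centriole genes gave 0.16 and ciliary signalling genes 0.07. The 3 other BBSome-related genes gave 0.03, with 0 at an unadjusted p under 0.05. Without (+/−) 505 the basal body median was 0.08, and without (+/+) 511 it was 0.09. Without (+/+) 510 the signalling median was 0.05. The median of the BBSome-related genes turned negative without (+/−) 506 (−0.03), (+/−) 508 (−0.003) or (+/+) 513 (−0.01), and was 0.10 without (+/−) 505. *Rabl2*, a GTPase of IFT-B, had 35.95, 31.7 and 33.8 CPM in (+/−) animals, against 26.1, 22.9 and 27.2 CPM in (+/+) animals (0.41 ± 0.10 SE, adjusted p = 0.166). *Kif17*, a further kinesin-2 gene, of cilia and dendrites, had 11.2, 11.7 and 12.6 CPM in (+/−) animals, against 16.5, 14.7 and 14.2 CPM in (+/+) animals. Its log2 fold change was −0.36 ± 0.11 SE (adjusted p = 0.168), negative like those of the kinesin-2 members. *Cep97*, which caps centrioles, had 19.7, 16.1 and 16.9 CPM in (+/−) animals, against 12.5, 13.2 and 14.3 CPM in (+/+) animals (0.40 ± 0.11 SE, adjusted p = 0.167). *Smo*, the Hedgehog transducer that enters the cilium, had 97.1, 77.9 and 78.03 CPM in (+/−) animals, against 56.7, 55.1 and 72.5 CPM in (+/+) animals (0.46 ± 0.14 SE, adjusted p = 0.168). In *Cep97* and *Smo* the genotypes did not overlap. Of 2 classic markers of neuronal cilia, *Adcy3*, an adenylyl cyclase, had 47.8, 64.1 and 64.7 CPM in (+/−) animals, against 66.2, 77.6 and 66.5 CPM in (+/+) animals (−0.25 ± 0.14 SE, adjusted p = 0.283). *Sstr3*, a somatostatin receptor, had 6.36, 10.2 and 20.1 CPM in (+/−) animals, against 5.42, 8.27 and 15.5 CPM in (+/+) animals (0.33 ± 0.48 SE, adjusted p = 0.671). Neither neuronal marker was higher at an unadjusted p under 0.05, and in *Adcy3* every (+/−) animal lay below every (+/+) animal. The BBSome-related genes of this list gave *Lztfl1* (0.22 ± 0.11 SE) and *Bbip1* (−0.12 ± 0.09 SE) as the ones with the smallest unadjusted p in either direction. The corresponding lower genes of the other classes were *Iqcb1* of the transition zone (−0.27 ± 0.14 SE), *Ttbk2* of the basal body (−0.18 ± 0.12 SE) and the receptor *Gpr161* (−0.22 ± 0.11 SE), none with an unadjusted p under 0.05.

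Markers of other cell types differed beside the cilium genes. In bulk RNA, more cells of a type and more RNA per cell cannot be told apart. Of 26 tested markers of motile cilia and ependymal cells, 26 had a positive log2 fold change, with a median of 0.91. In 25 every (+/−) animal lay above every (+/+) animal, compared to 15.5% of all tested genes. Their summed level was 2454, 1971 and 2324 CPM in (+/−) animals, against 1235, 1082 and 1683 CPM in (+/+) animals, and no tested marker was at 0. *Tmem212*, the list member with the smallest unadjusted p, had 31.9, 27.1 and 27.6 CPM in (+/−) animals, against 15.5, 11.3 and 16.6 CPM in (+/+) animals (1.00 ± 0.15 SE). *Foxj1*, the master regulator of motile cilia, had 647, 582 and 611 CPM in (+/−) animals, against 401, 349 and 483 CPM in (+/+) animals (0.58 ± 0.14 SE, adjusted p = 0.166). In mean log2 level, the (+/+) animal highest for these markers was 513. The same animal was also highest for the members and for the astrocyte, radial glia, oligodendrocyte lineage and proliferation lists. It was not highest for the neuron, microglia, choroid plexus and meningeal lists.

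Of the 12 neuron markers, 12 had a negative log2 fold change, with a median of −0.46. Without (+/−) 505 all 12 stayed negative, with a median of −0.21. Their summed level was 2799, 4831 and 5286 CPM in (+/−) animals, against 5643, 6334 and 5333 CPM in (+/+) animals. *Elavl4*, an RNA-binding protein of neurons, had 23.4, 32.4 and 37.2 CPM in (+/−) animals, against 47.3, 51.6 and 37.5 CPM in (+/+) animals (−0.55 ± 0.19 SE, adjusted p = 0.18). Astrocyte markers were positive for 8 of 10, with a median of 0.25, which was 0.15 without (+/+) 511 and 0.39 without (+/+) 513. Their summed level was 14330, 13520 and 12970 CPM in (+/−) animals, against 9465, 9255 and 14010 CPM in (+/+) animals. Radial glia markers were positive for 6 of 8 (0.34), with summed levels of 5835 to 6778 CPM in (+/−) animals and 4044 to 5925 CPM in (+/+) animals. Microglia markers were positive for 10 of 10 (1.00), with 126 to 242 CPM in (+/−) and 92.5 to 119.5 CPM in (+/+) animals. Without (+/−) 505, 9 of 10 were positive and the microglia median was 0.53. Proliferation genes were positive for 7 of 8 (0.55), with 64.8 to 89.5 CPM in (+/−) and 38.8 to 56.8 CPM in (+/+) animals. Without (+/−) 505, 6 of 8 were positive and the proliferation median was 0.35.

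Markers of choroid plexus, meninges and the oligodendrocyte lineage were read as well. Choroid plexus markers were positive for 11 of 12 (1.15), with 454 to 1626 CPM in (+/−) and 128 to 322 CPM in (+/+) animals. *Kcne2*, the remaining marker of that list, had 97, 27 and 8 counts in (+/−) animals, against 6, 0 and 1 in (+/+) animals, and was under the filter. Meningeal fibroblast markers were positive for 8 of 8 (0.85), with 442 to 1629 CPM in (+/−) and 222 to 871 CPM in (+/+) animals, and the highest sum was that of (+/−) 505. Without that animal, 3 of 8 were positive and the meningeal median was −0.05. Without (+/+) 513 it was 0.46. Oligodendrocyte lineage markers were positive for 4 of 6 (0.49), with *Sox10* and *Mog* under the filter. Oligodendrocyte sums were 105 to 129 CPM in (+/−) and 84.7 to 108 CPM in (+/+) animals, and the median was 0.28 without (+/+) 511 and 0.89 without (+/+) 513. Of these lists, the genes with the smallest unadjusted p were *Folr1* for choroid plexus (1.01 ± 0.15 SE), *Ptgds* for meninges (1.06 ± 0.29 SE), *Pdgfra* for the oligodendrocyte lineage (1.97 ± 0.68 SE), *S100b* for astrocytes (1.13 ± 0.25 SE), *Nes* for radial glia (0.53 ± 0.18 SE), *Fcrls* for microglia (1.16 ± 0.29 SE) and *Kif11* for proliferation (1.09 ± 0.29 SE). On the lower side these were *Kl* (−0.33 ± 0.25 SE), *Mbp* (−0.22 ± 0.12 SE), *Slc1a2* (−0.07 ± 0.14 SE), *Hes5* (−0.60 ± 0.32 SE) and *Aurkb* (−0.20 ± 0.25 SE), none with an unadjusted p under 0.05. The part of any of these cell types in the difference of the cilium genes was not tested.

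**Figure D4:**
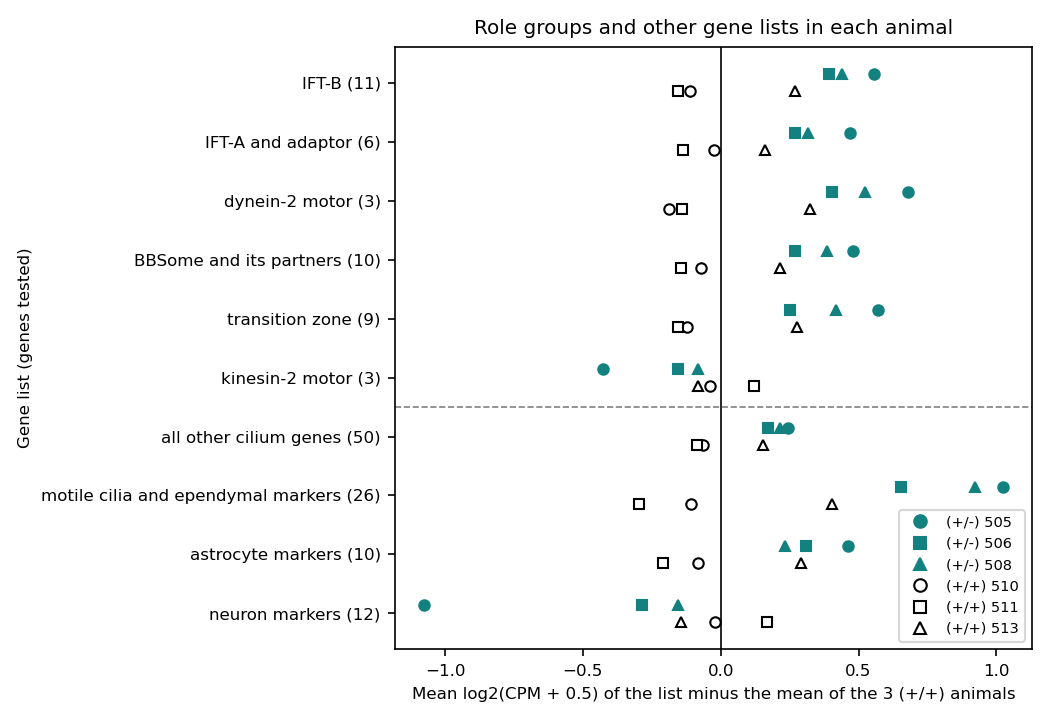
Mean log2(CPM + 0.5) of each gene list minus the mean of the 3 (+/+) animals (x axis), by animal (filled symbols (+/−), open symbols (+/+)). The list size is in brackets, and the dashed line divides the role groups from other lists. The (+/+) 513 triangle lies right of the other (+/+) animals in all cilium lists but kinesin-2.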

How the data were processed

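Raw gene counts per library were used for every test. Per the labels and the study's methods, the authors mapped paired-end reads with STAR to mm10 and deposited unnormalised counts per gene; the gene counter, its version and its strand setting are not given in the sources used here. Tables of size-factor-normalised counts and of the authors' own DESeq2 results (shrunken log2 fold changes, p-values and adjusted p-values) were not used. Counts of the 2 libraries of an animal were summed, giving 3 (+/−) and 3 (+/+) animals, and compared in R 4.3.3 with edgeR 4.0.16 (filterByExpr, TMM, quasi-likelihood test, Benjamini-Hochberg adjustment over 18264 genes, two-sided). The chi-square per degree of freedom between library pairs was 1.25 to 1.32 (sampling noise gives 1), and no source says what separates them. Animals are separate pups, and an exact permutation test over 3 against 3 cannot go below p = 0.1. Scripts were tested on simulated data.

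Members and gene lists were chosen with earlier results of these data known. Values per animal are given for every member with an unadjusted p under 0.05 and, beside them, for the member with the smallest p and the largest change of each role group. From other lists the text names genes with the smallest p in a direction, and *Foxj1*, *Adcy3*, *Sstr3* and *Myt1l*. Beyond this rule, *Hspb11*, *Tctex1d2* and *Ttc30a2* are named as IFT and motor genes outside the members that were not under 0.05. Some items that this rule or the promoter search would name are not reported here. Alternatives were other size factors, DESeq2 1.42.0, other filters, 12 separate libraries with and without a replicate block, either library alone, sex by *Xist* as covariate, and leaving out each animal.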

Additional observations from a re-analysis of the deposited data

How the results depend on the processing

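The member median stayed positive and every member but *Nphp4* kept its direction with any animal left out. The smallest count of a member in an animal was 90. By the DESeq2 Wald test 25 members were higher at an adjusted p under 0.1 (7.54% of all genes), without a low-count filter 16 were (3.16%), and with either scaling alternative 0 were (0%). Treating the 12 libraries as separate samples, which counts each animal more than once, gave 35 higher and 2 lower at an adjusted p under 0.1, and also 2 lower at an unadjusted p under 0.05, with or without the replicate block. Of all genes, 24.1% were called higher and 21.5% lower with the block, and 25.6% and 23.3% without it, while 22.2% with the block and 23.5% without it were lower at an unadjusted p under 0.05. In both, 16 members (7.22% of all genes) did not overlap upward. Library numbers did not pair the animals: deviations of same-numbered libraries from their animal's mean correlated at −0.0165 to 0.0169. With library 1 alone, 0 members lay wholly below (13.3% of all genes). With sex by *Xist* as a covariate, 17 were higher (6.92% of all genes) and 0 lower (3.06%) at an unadjusted p under 0.05. Only (+/+) 511 had high *Xist* counts, so this fit could not tell sex from that animal and is close to leaving it out. Leaving out each animal in turn gave 0 to 30 members higher at an adjusted p under 0.1 (0% to 12.3% of all genes). At an unadjusted p under 0.05 it gave 17 to 33 higher (6.7% to 18.1%) and 0 to 1 lower (3.03% to 12.5%), and 1 to 2 lay wholly below (15.2% to 26.8%).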
